A study of Mus musculus with 27 samples.

Results

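The effect of TRAP1 loss was examined in M2 macrophages kept in control medium, by comparing 3 TRAP1 KO libraries (replicates 1, 2 and 3) with 3 WT libraries (replicates 2, 3 and 4), which are 6 of the 27 libraries of the study. The 6 were chosen by their labels alone, as the M2 libraries of batch 1 in control medium, and every gene that passed a filter on low counts was described. The replicate 4 library of M2 TRAP1 KO cells in control medium belongs to batch 2 and was left out.

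The study asked how TRAP1 in macrophages shapes their response to medium conditioned by malignant peripheral nerve sheath tumor cells (MPNST-CM). Bone marrow of age-matched female C57BL/6 mice of 3 to 4 months of either genotype, wild-type (WT) or TRAP1-deficient (TRAP1 KO), was differentiated in medium of L929 fibroblasts as a source of M-CSF. These macrophages (Mφ) were polarized to M2 cells by 24 h of IL-4 (10 ng/ml) and then kept for 48 h in DMEM, the control medium, without MPNST-CM. Transcripts were measured by QuantSeq, which reads the 3′ end of polyadenylated RNA. By their labels both groups thus shared the strain, the sex, the IL-4 treatment and the medium, and they differed by genotype. The labels do not say whether the libraries of a group came from separate mice or cultures, so p-values measure the spread between these libraries, which may be technical.

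TRAP1 is the mitochondrial member of the HSP90 chaperone family. It binds succinate dehydrogenase, which is both a TCA cycle enzyme and complex II of the respiratory chain, and it is known to lower the activity of that complex. IL-4 acts on macrophages through its receptor and the transcription factor STAT6, which switches on genes such as Arg1, Mrc1 and Retnla together with feedback inhibitors of cytokine signalling such as Socs1 and Cish, and alternatively activated macrophages rely heavily on oxidative phosphorylation.

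The 6 libraries held between 7392454 and 8510959 counts on genes, and a gene with fewer than 3 counts was treated as below detection in that library, a floor that covers counting error only. Levels are given as CPM, the counts of a gene relative to the TMM-scaled library total, fold changes are log2 of TRAP1 KO over WT with their standard error (SE), and adjusted p are Benjamini-Hochberg values of edgeR's quasi-likelihood test, with a threshold of 0.05. Each of the 6 libraries was closest, by rank correlation across genes, to the mean of its own group among the 8 groups of batch 1 (rho from 0.985 to 0.994), while the batch 2 library that was left out was closer to TRAP1 KO Mφ in MPNST-CM (rho 0.969) than to its labelled group (0.913). Within the TRAP1 KO group, replicate 2 stood farther from the other libraries than they did from each other, and its pairs had a chi-square of 10.8 and 13.1 for each degree of freedom, against 4.26 for the remaining pair.

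Trap1 itself was at 15.8, 16.3 and 18.8 CPM in the WT libraries and had a count of 0 in each TRAP1 KO library, against 105, 126 and 134 counts in WT, which makes it at least 40.2-fold lower with a floor of 3 counts per library. A further transcript separated the groups as completely. Xist, the noncoding RNA that coats the inactive X chromosome of female cells, was at 337, 369 and 409 CPM in WT and had 0, 4 and 0 counts in TRAP1 KO. The Y-linked genes Ddx3y, Kdm5d, Uty and Eif2s3y had a count of 0 in all 6 libraries. Of the genes that escape X-inactivation, Eif2s3x was at 41.5, 39.6 and 39.7 CPM in WT and 24.3, 21.6 and 19.03 in TRAP1 KO (log2 fold change of -0.90, SE 0.18, adjusted p = 0.000869). Kdm5c was also lower, at -0.39 (adjusted p = 0.00821). So was Kdm6a at -0.57 (adjusted p = 0.0482), a call lost without WT replicate 2, WT replicate 4, TRAP1 KO replicate 1 or TRAP1 KO replicate 2 (adjusted p from 0.0879 to 0.103), and Pbdc1 at -0.29 (adjusted p = 0.0251), a call lost without WT replicate 2, WT replicate 4 or TRAP1 KO replicate 2 (adjusted p from 0.05903 to 0.108), whereas Ddx3x, Ftx and Jpx did not pass (0.11 (adjusted p = 0.569), 0.12 (adjusted p = 0.862) and -0.32 (adjusted p = 0.7301)), and Tsix had no count. Without WT replicate 2, without WT replicate 4 or without TRAP1 KO replicate 2, 3 of the 8 tested genes of this list were lower in place of 5. The 452 tested genes of the X chromosome as a whole had 39 genes higher and 36 lower, shares of 8.63% and 7.96%, against 8.39% and 7.96% of the 12936 autosomal genes. The labels call all mice female. The loss of Xist moved with the genotype in these 6 libraries, so its part in the differences below cannot be told apart from that of Trap1.

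Of the 13614 genes tested, 2238 (16.4%) differed between TRAP1 KO and WT M2 cells in control medium, 1166 (8.56%) higher and 1072 (7.87%) lower in TRAP1 KO. The counts of each list below stand against these shares of 8.56% and 7.87%. Most of these differences were modest: 849 were under 0.5 on the log2 scale, 863 between 0.5 and 1, 403 between 1 and 2, and 123 over 2. Without TRAP1 KO replicate 2, 1817 genes passed. With all 27 libraries in the fit, where the batch 2 library joins the TRAP1 KO group, 1137 passed, of which 1035 were shared with the 2238, all in the same direction. In that fit the sign turned for 12 named genes that had passed (Il1b, Cox6a2, Aqp9, Ptgs2, Cxcl2, Xaf1, Asns, Mthfd2, Clec4n, Ms4a6d, Ier3 and Dusp1), none of which passed there. The libraries of the groups did not overlap for 5100 genes (37.5%), of which 2718 (20% of all genes) were higher and 2382 (17.5%) lower in TRAP1 KO. Of the 2238 called genes, 2196 had no overlap, so its absence adds little for a called gene. The 10 largest falls, among called genes without overlap and with at least 10 CPM in the higher group, belonged to Xist, Trap1, Arg1, Il31ra, Socs1, Dclk1, Tuba8, Gm3699, Cish and Cdh1. By the same rule the 10 largest rises were those of Scd1, Adamts1, Ifitm6, Dio2, TrnA, Cdkn1c, Gprc5b, Mamdc2, Folr2 and Slco4a1. The fall of Gm3699 rests on 1 library, since it was at 2.103, 41.7 and 1.97 CPM in WT and 1.501, 1.21 and 1.38 in TRAP1 KO, and it was a call lost without WT replicate 3 (adjusted p = 0.419) and in the fit on the 6 libraries alone (adjusted p = 0.256).

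**Figure D1:**
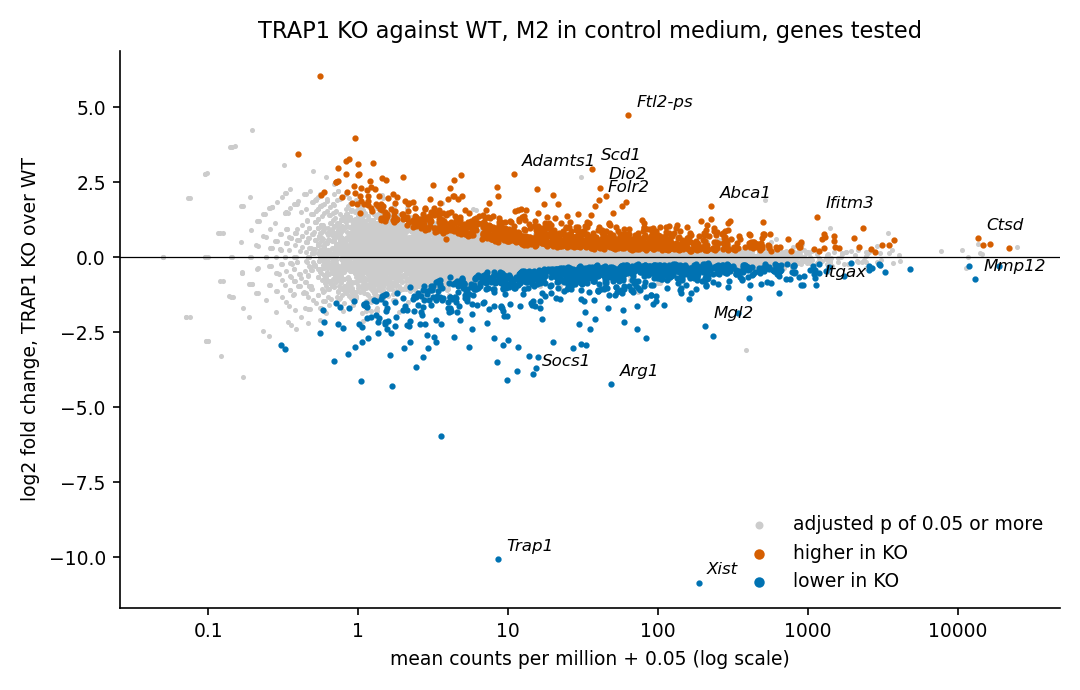
Log2 fold change of TRAP1 KO over WT M2 cells in control medium (vertical axis) against the mean CPM of the 6 libraries plus 0.05 (horizontal log axis), with 1 point for each of the 13614 genes tested, orange where higher and blue where lower in TRAP1 KO at an adjusted p under 0.05. Trap1 and Xist lie apart at the bottom, where the fitted value depends on the prior count because TRAP1 KO libraries have few or no counts, Arg1 is among the larger falls at -4.24, and the orange point of Ftl2-ps rests on TRAP1 KO replicate 1.

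Genes of the IL-4 response were mostly lower in TRAP1 KO cells. Of the 37 tested genes of this list, 26 (70.3%) fell and 2 (5.41%) rose, with a median log2 fold change of -1.004 against 0.02 over all genes tested. With all 27 libraries 15 fell, and with batch as a term beside them 14 did. Arg1, the arginase that is a hallmark of alternative activation, was at 86.4, 100.3 and 89.4 CPM in WT and 5.55, 4.15 and 4.96 in TRAP1 KO (log2 fold change of -4.24, SE 0.25, adjusted p = 2.24e-10). The libraries of each group lay close together and the groups far apart. The feedback inhibitors of cytokine signalling fell in parallel. Socs1 was at 24.2, 26.04 and 32.01 CPM in WT and 1.801, 0.6695 and 3.03 in TRAP1 KO (log2 fold change of -3.90, SE 0.31, adjusted p = 8.36e-10). Cish, a STAT target that damps cytokine receptors, was at 26.3, 32.1 and 27.2 CPM and 1.35, 4.42 and 2.62 (log2 fold change of -3.33, SE 0.26, adjusted p = 7.57e-10). For both, the highest TRAP1 KO library lay far below the lowest WT library.

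C-type lectins of M2 cells fell as well. Mgl2 went from 354, 331 and 342 CPM in WT to 75.3, 67.6 and 66.2 in TRAP1 KO (log2 fold change of -2.30, SE 0.13, adjusted p = 5.88e-12). Its neighbour in the family, Clec10a, was at 80.4, 80.4 and 69.4 CPM and 32.3, 44.2 and 30.6 (log2 fold change of -1.10, SE 0.13, adjusted p = 6.88e-07). The mannose receptor Mrc1 (CD206) was at 757, 752 and 750.4 CPM and 597, 516 and 561, a smaller fall (log2 fold change of -0.43, SE 0.07, adjusted p = 0.000105). The adhesion molecule Cdh1, which IL-4 induces in macrophages, was at 27.04, 27.6 and 19.7 CPM and 2.25, 2.68 and 2.62 (log2 fold change of -3.29, SE 0.24, adjusted p = 1.22e-10).

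Chemokines that IL-4 induces followed. The eosinophil chemoattractant Ccl24 was at 62.05, 56.9 and 56.7 CPM in WT and 9.91, 11.8 and 11.6 in TRAP1 KO (log2 fold change of -2.40, SE 0.20, adjusted p = 1.69e-09). The CCR4 ligands Ccl17 and Ccl22 fell by log2 fold changes of -2.23 and -2.06, with Ccl22 at 65.4, 55.4 and 61.9 CPM in WT and 16.5, 9.64 and 17.8 in TRAP1 KO. Further members, chosen after their values were seen, were the transcription factor Irf4 (-1.81), the arginine transporter Slc7a2 (-1.75), the VEGF receptor Flt1 (-1.85) and the elastase Mmp12 (-0.73). Each had no overlap between the groups, which held in this direction for 17.5% of all genes. Rnase2a, a ribonuclease of the eosinophil-associated family with close paralogs among which reads may have been split, was at 549.7, 588 and 593 CPM and 224, 233 and 222 (log2 fold change of -1.35, SE 0.09, adjusted p = 7.49e-11).

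Not every IL-4 gene fell. Retnla, which encodes FIZZ1, was at 1693, 1644 and 1680.1 CPM in WT and 1850.4, 2074 and 1763 in TRAP1 KO (log2 fold change of 0.18, SE 0.14, adjusted p = 0.418). Chil3, which encodes YM1, was at 267, 293 and 299.7 CPM and 255, 312 and 299.9 (log2 fold change of 0.01, SE 0.15, adjusted p = 0.971), and its groups overlapped. The receptor chain Il4ra and the factor Stat6 did not pass either, at -0.01 (adjusted p = 0.957) and -0.34 (adjusted p = 0.108), nor did Il13ra1 (-0.10 (adjusted p = 0.818)). Pparg was at 80.8, 66.8 and 87.6 CPM in WT and 66.8, 18.7 and 67.6 in TRAP1 KO, where replicate 2 stood apart. The 2 genes that rose were Fn1, which encodes fibronectin, and Cd163, a hemoglobin scavenger receptor. Fn1 was at 179.8, 188 and 179 CPM and 402, 404 and 405 (log2 fold change of 1.15, SE 0.18, adjusted p = 8.83e-05), and Cd163 was low in every library (2.25, 4.92 and 3.93 CPM and 6.004, 6.695 and 6.62). The latter was a call lost without WT replicate 2, WT replicate 4, TRAP1 KO replicate 2 or TRAP1 KO replicate 3 (adjusted p from 0.0651 to 0.181), which left 1 gene of the list that rose.

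**Figure D2:**
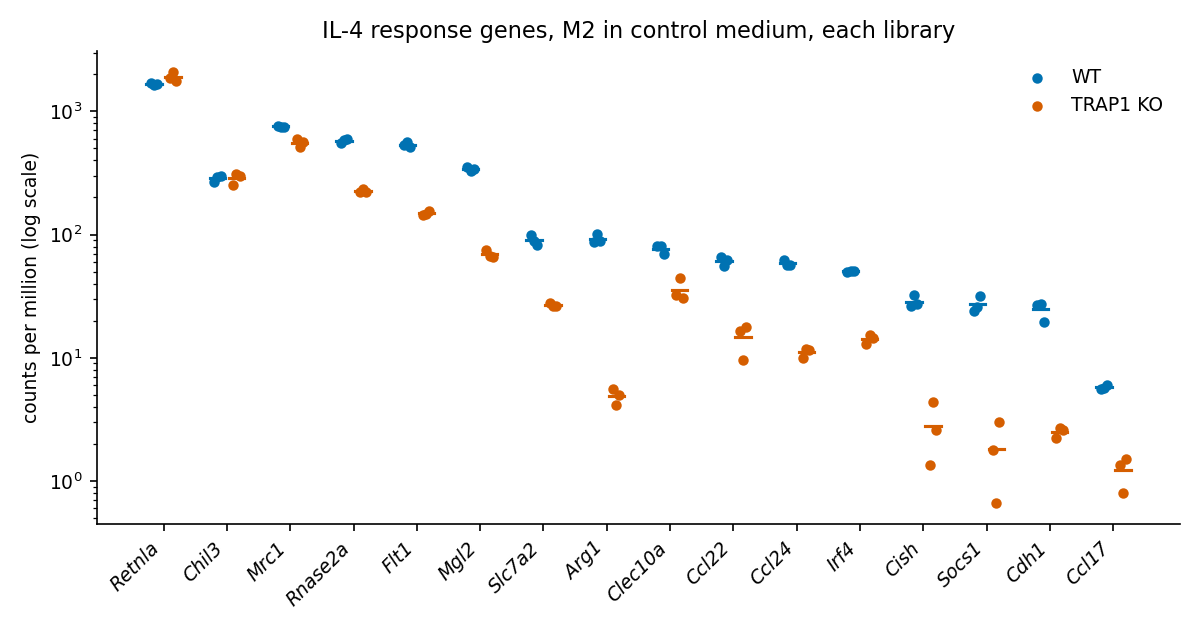
CPM of 16 IL-4 response genes on a log axis in each of the 3 WT (blue) and 3 TRAP1 KO (orange) M2 libraries in control medium, where points are libraries and bars are group means. Retnla and Chil3 lie at like levels in both groups, while from Rnase2a to Ccl17 all TRAP1 KO points lie below all WT points, with Arg1 near 92 CPM in WT and 5 in TRAP1 KO.

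The stretches upstream of these genes were searched for the palindrome of TTC and GAA set 4 bases apart, the spacing that STAT6 is known to prefer, which reads the same on both strands. Windows of 250 bases before the start site, from RefSeq on the GRCm38.p6 build, were at hand for 18 of the 26 genes that fell, and 3 of the 18 (16.7%) held it, against 5.86% of 9906 tested genes with such a window. The palindrome with 3 bases between, TTCNNNGAA, was in 1 of the 18 (5.56%) and in 7.18% of all. The windows of Ccl17 (chr8:94810203-94810452 on the plus strand) and of Pdcd1lg2 (chr19:29410669-29410918 on the plus strand), the gene of the inhibitory ligand PD-L2, are shown because both genes fell, Pdcd1lg2 by -1.66 (adjusted p = 0.00216), with the match to the 4-base spacing in capitals.
Ccl17: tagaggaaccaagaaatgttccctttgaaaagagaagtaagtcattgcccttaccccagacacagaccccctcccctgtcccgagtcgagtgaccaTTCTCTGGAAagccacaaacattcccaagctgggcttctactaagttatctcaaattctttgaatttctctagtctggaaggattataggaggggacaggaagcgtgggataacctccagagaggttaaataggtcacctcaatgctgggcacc
Pdcd1lg2: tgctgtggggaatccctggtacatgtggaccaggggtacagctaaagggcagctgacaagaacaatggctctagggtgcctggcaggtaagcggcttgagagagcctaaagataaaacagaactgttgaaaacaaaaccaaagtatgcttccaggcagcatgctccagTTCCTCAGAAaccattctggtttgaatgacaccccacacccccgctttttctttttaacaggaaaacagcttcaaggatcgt
The third was Clec7a, the gene of the beta-glucan receptor dectin-1, which fell by 0.54 (adjusted p = 1.70e-05). A match is a description of the letters and not of a bound site.

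Of the markers that the study followed by RT-qPCR or as proteins, 12 of 13 were tested, and 4 rose and 5 fell. The study chose this list, so it is not independent evidence of a direction. Besides Arg1, Mrc1, Clec10a and Cd163, the angiogenic factor Vegfa was at 31.2, 36.01 and 39.5 CPM in WT and 63.2, 57.7 and 58.9 in TRAP1 KO (log2 fold change of 0.75, SE 0.11, adjusted p = 2.60e-05). The gelatinase Mmp9 rose by 0.58 (adjusted p = 0.000315), and the high-affinity Fc receptor Fcgr1 (CD64) went from 28.7, 30.1 and 28.4 CPM to 59.7, 70.2 and 64.1 (log2 fold change of 1.16, SE 0.09, adjusted p = 5.37e-10). Il1b, the precursor of interleukin-1 beta, was at 10.7, 11.5 and 10.8 CPM and 3.302, 5.22 and 6.07 (log2 fold change of -1.17, SE 0.19, adjusted p = 7.96e-05). Nos2, the inducible nitric oxide synthase, was lower from very low levels, with 11, 19 and 11 counts in WT and 1, 1 and 0 in TRAP1 KO. Tnf, Hif1a and the glutamine synthetase gene Glul did not pass, at 0.19 (adjusted p = 0.374), -0.06 (adjusted p = 0.722) and 0.22 (adjusted p = 0.0572), and Arg2 was too low to be tested.

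Other chemokine and inflammatory genes were also more often lower. Among 26 tested chemokines and receptors, which share Ccl17, Ccl22 and Ccl24 with the IL-4 list, 14 fell and 5 rose (median -0.78). Without WT replicate 2, WT replicate 3 or TRAP1 KO replicate 2, 3 rose. Among 24 inflammatory cytokines and M1 markers 10 fell and 3 rose (median -0.28). Ccl4, a chemokine that attracts monocytes and lymphocytes, was at 152, 167 and 176 CPM in WT and 51.2, 48.2 and 64.95 in TRAP1 KO (log2 fold change of -1.59, SE 0.11, adjusted p = 4.77e-11). The monocyte attractant Ccl7 was at 114, 151 and 149.7 CPM and 62.6, 48.3 and 57.4 (log2 fold change of -1.30, SE 0.18, adjusted p = 2.99e-05). Ptgs2, the inducible cyclooxygenase, and the neutrophil attractant Cxcl2 fell from low levels by -1.79 (adjusted p = 0.000442) and -1.62 (adjusted p = 0.000638). Nfkbiz, an inducible regulator of NF-κB, went the other way, from 4.36, 5.18 and 3.51 CPM to 10.4, 11.8 and 10.1 (log2 fold change of 1.30, SE 0.19, adjusted p = 1.64e-05).

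Many nuclear genes of the respiratory chain were lower in TRAP1 KO cells by small amounts. All 36 tested subunit and assembly genes of complex I had a negative fold change, from -0.75 to -0.12 with a median of -0.30, and 20 of the 36 (55.6%) fell by the test. Of 38 genes of complexes III to V, 23 (60.5%) fell and none rose (median -0.35), and 13 fell without TRAP1 KO replicate 3. Ndufb6, a subunit of complex I, was at 102, 105 and 105 CPM in WT and 70.99, 76.9 and 62.9 in TRAP1 KO (log2 fold change of -0.56, SE 0.13, adjusted p = 0.00317). Ndufa12 behaved alike, at 92.7, 98.6 and 97.9 CPM and 63.8, 75.7 and 62.5 (log2 fold change of -0.52, SE 0.09, adjusted p = 0.000194), and Ndufs8 and Ndufab1 fell, with log2 fold changes of -0.49 and -0.48, the latter a call lost without TRAP1 KO replicate 3 (adjusted p = 0.0662). The groups of each of these 4 genes did not overlap, which held in this direction for 17.5% of all genes.

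Cytochrome c1 (Cyc1), of complex III, was at 67.6, 57.6 and 68.1 CPM and 44.4, 41.1 and 36.4 (log2 fold change of -0.66, SE 0.11, adjusted p = 9.45e-05). Cox8a of complex IV fell by 0.68 (adjusted p = 0.00954). Atp5g2, which encodes the c subunit of ATP synthase, was at 17.1, 13.7 and 13.8 CPM and 10.1, 4.82 and 6.895 (log2 fold change of -1.04, SE 0.23, adjusted p = 0.00204), and Uqcrc2 fell by 0.87 (adjusted p = 0.0157), a call lost without WT replicate 3, WT replicate 4 or TRAP1 KO replicate 2 (adjusted p from 0.0523 to 0.0954). The motif of the factor NRF1, GCGCA and GCGC set 1 base apart, was searched on both strands and was in the windows of 7 of 37 respiratory genes that fell (18.9%) and in 9.32% of all genes with a window. The 13 protein-coding transcripts of the mitochondrial genome did not move this way. Their summed share of all counts was 4.68% to 5.17% in WT and 5.15% to 5.99% in TRAP1 KO (two-sided exact permutation p = 0.2, of which 0.1 is the smallest that 3 against 3 allow). Of these 13, ND5 alone rose by the test (0.37 (adjusted p = 0.00464)), without TRAP1 KO replicate 1 or WT replicate 4 none did, and without WT replicate 2 or TRAP1 KO replicate 2 there were 2 that rose.

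Sdhc, a subunit of succinate dehydrogenase, the partner of TRAP1, was at 272, 289 and 307 CPM in WT and 211, 209.6 and 201 in TRAP1 KO (log2 fold change of -0.48, SE 0.09, adjusted p = 0.000369). The assembly factor Sdhaf4 fell by 0.60 (adjusted p = 0.00448), a call lost without WT replicate 4 (adjusted p = 0.0636). Acod1, whose product makes itaconate, an inhibitor of succinate dehydrogenase, was at 30.8, 35.4 and 23.02 CPM and 10.8, 12.9 and 11.3 (log2 fold change of -1.35, SE 0.17, adjusted p = 1.62e-06). These 3 of the 9 tested genes of this list fell, none rose and 6 had no call. Of the 9 fold changes 8 were negative (median -0.48). With 6 genes not called, a fall of the enzyme as a whole was not shown. DESeq2 called 5. In the TCA cycle 5 of 21 genes fell (23.8%, against 7.87% of all genes), and 20 of the 21 fold changes were negative (median -0.20). Mitochondrial malate dehydrogenase Mdh2 was at 308, 317 and 315 CPM and 226, 255 and 231 (log2 fold change of -0.40, SE 0.07, adjusted p = 0.000262). The ligase subunit Suclg1 and the dehydrogenase subunit Idh3a fell, with log2 fold changes of -0.46 and -0.80, the latter a call lost without TRAP1 KO replicate 2 (adjusted p = 0.0732). For Idh3a TRAP1 KO replicate 2 was the lowest library.

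Apart from Trap1, HSP90 paralogs and mitochondrial chaperones and proteases had 6 of 18 tested genes lower and none higher, with a median of -0.26. The mitochondrial chaperonin Hspd1 was at 77.8, 81.3 and 79.3 CPM in WT and 52.4, 60.9 and 52.3 in TRAP1 KO (log2 fold change of -0.53, SE 0.11, adjusted p = 0.00169). Prohibitin 2 (Phb2) fell by 0.40 (adjusted p = 0.00144) and the protease subunit Clpp by -0.40 (adjusted p = 0.0289), the latter a call lost without WT replicate 2, WT replicate 4 or TRAP1 KO replicate 1 (adjusted p from 0.0689 to 0.0938). Hsp90b1, the endoplasmic reticulum paralog of TRAP1, was at 1308, 1237 and 1263 CPM and 1089.7, 704 and 1024 (log2 fold change of -0.43, SE 0.13, adjusted p = 0.021996), with replicate 2 the lowest, a call lost without TRAP1 KO replicate 2 (adjusted p = 0.0863), and also in the fit on the 6 libraries alone (adjusted p = 0.140).

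Of 25 glycolytic genes 8 fell and none rose (median -0.21). Pfkp, a phosphofructokinase, was at 172, 179 and 175 CPM in WT and 115, 127 and 113 in TRAP1 KO (log2 fold change of -0.57, SE 0.07, adjusted p = 3.48e-06). Lactate dehydrogenase A (Ldha) was at 149, 144 and 150.1 CPM and 97.6, 108 and 92.8 (log2 fold change of -0.57, SE 0.10, adjusted p = 0.000292). The hexokinase Hk2 and the kinase Pgk1 fell, with log2 fold changes of -0.58 and -0.59. HIF-1 targets outside glycolysis split, with 4 of 23 higher (17.4%) and 3 lower (13%), against 8.56% and 7.87% of all genes (median 0.01). Ndrg1 rose from 21.6, 23.2 and 22.04 CPM to 36.02, 42.7 and 43.3 (log2 fold change of 0.87, SE 0.11, adjusted p = 1.64e-06) beside Vegfa, while the transcriptional repressor Bhlhe40 went from 196, 191 and 210.4 CPM to 114, 89.7 and 114 (log2 fold change of -0.91, SE 0.14, adjusted p = 3.63e-05) and Higd1a fell by 0.62.

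**Figure D3:**
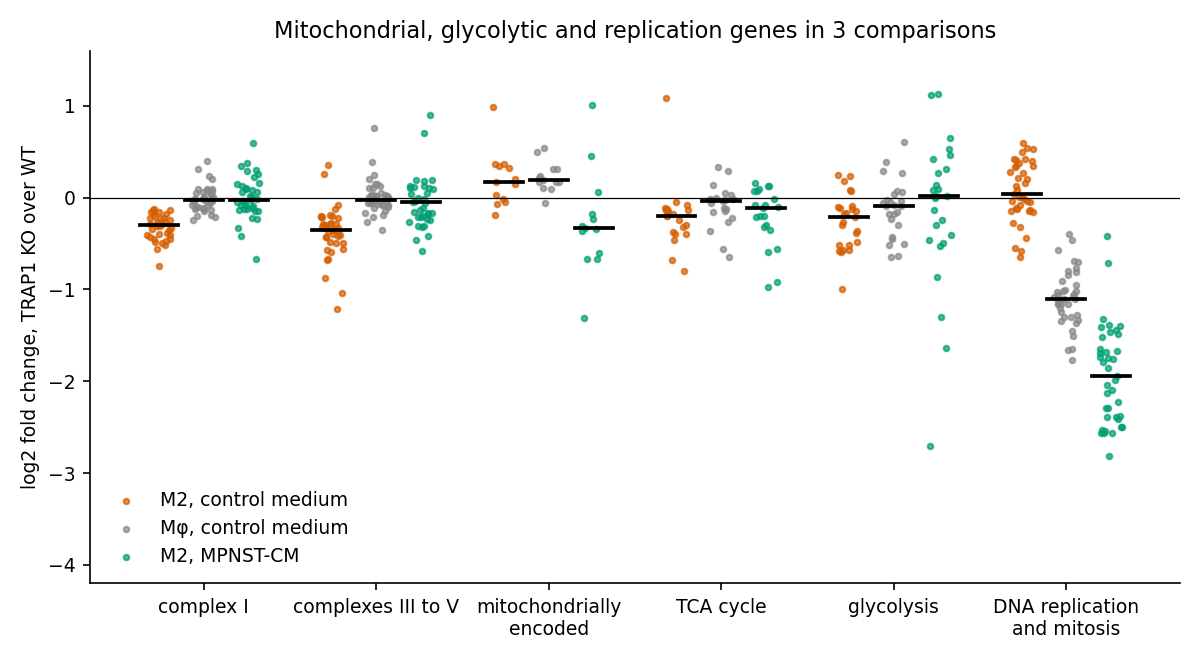
Log2 fold change of TRAP1 KO over WT for each tested gene of 6 lists (points) with the list median (black bar), in M2 cells in control medium (orange), Mφ in control medium (grey) and M2 cells in MPNST-CM (green). In M2 cells in control medium the medians were -0.30 for complex I and -0.35 for complexes III to V, and DNA replication and mitosis had a median of 0.03 there, against -1.11 in Mφ and -1.94 in MPNST-CM.

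Genes of lipid handling were among those that rose. Scd1, the desaturase that makes oleate, was at 10.5, 8.16 and 6.18 CPM in WT and 60.3, 66.3 and 65.9 in TRAP1 KO, the largest of the 10 rises (log2 fold change of 2.96, SE 0.15, adjusted p = 7.38e-13). Its paralog Scd2 was at 282, 284 and 314 CPM and 499, 545 and 477 (log2 fold change of 0.79, SE 0.09, adjusted p = 1.79e-07), and the desaturase Fads2 rose by 0.77 (adjusted p = 1.16e-05). The list of cholesterol and fatty acid synthesis as a whole did not follow, with 5 of 30 tested genes higher and 3 lower around a median of -0.11. These are 16.7% and 10%, against 8.56% and 7.87% of all genes. Leaving out WT replicate 2 left 3 genes higher, leaving out WT replicate 4 left 1 lower, and the fit on the 6 libraries alone had 7 lower.

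In lipid efflux, uptake and storage, 9 of 20 tested genes rose and 2 fell (median 0.29). Abca1, the cholesterol exporter, was at 107, 108 and 104 CPM in WT and 385, 251 and 398 in TRAP1 KO (log2 fold change of 1.69, SE 0.13, adjusted p = 4.78e-10). Its carrier Apoe was at 334, 296 and 289 CPM and 673, 748 and 673 (log2 fold change of 1.19, SE 0.10, adjusted p = 5.04e-09). Mylip, a ligase that degrades the LDL receptor and, like Abca1, is a target of the sterol-sensing LXR factors, was at 10.97, 12.3 and 12.2 CPM and 32.3, 15.9 and 39.7 (log2 fold change of 1.30, SE 0.29, adjusted p = 0.003401), a call lost in the fit on the 6 libraries alone (adjusted p = 0.0621). For Abca1 and Mylip, TRAP1 KO replicate 2 was the lowest of its group and still above all WT libraries. The fatty acid carrier Fabp4 rose by 1.06 (adjusted p = 1.73e-06).

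Antioxidant genes of the NRF2 program were more often lower, with 10 of 20 tested genes down and 1 up (median -0.39). Nqo1, a quinone reductase, was at 17.7, 17.7 and 18.8 CPM in WT and 4.203, 8.17 and 5.102 in TRAP1 KO (log2 fold change of -1.62, SE 0.26, adjusted p = 5.27e-05). The cystine transporter Slc7a11 was at 81.1, 72.5 and 83.5 CPM and 36.5, 33.1 and 34.5 (log2 fold change of -1.19, SE 0.12, adjusted p = 2.79e-08). Gclm, a subunit of the enzyme that starts glutathione synthesis, fell by 0.66 (adjusted p = 0.000298). Ftl1, the ferritin light chain, fell by 0.62 (adjusted p = 0.0383), a call lost when any library but TRAP1 KO replicate 1 was left out (adjusted p from 0.05499 to 0.114), and pseudogene copies of Ftl1 may share its reads. The motif TGACNNNGC, the core of the NRF2 element, searched on both strands, was in the windows of 3 of 9 of these genes (33.3%), Gclm, Prdx1 and Txnrd1, and in 13.9% of all.

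In the integrated stress response, 7 of 24 tested genes fell and 2 rose (median -0.31), and between 0 and 1 rose when WT replicate 2, WT replicate 3, WT replicate 4, TRAP1 KO replicate 2 or TRAP1 KO replicate 3 was left out. Asparagine synthetase (Asns) was at 9.46, 11.5 and 16.005 CPM in WT and 5.85, 6.83 and 5.38 in TRAP1 KO (log2 fold change of -1.03, SE 0.25, adjusted p = 0.00589). The mitochondrial folate enzymes Mthfd2 and Shmt2 fell, with log2 fold changes of -0.64 and -0.81, whereas the cytokine Gdf15 rose by 0.55 (adjusted p = 0.0139), a call lost without WT replicate 3, WT replicate 4 or TRAP1 KO replicate 3 (adjusted p from 0.0529 to 0.188). Of 18 endoplasmic reticulum chaperones 6 fell and none rose, and 2 fell without WT replicate 2. Creld2 fell by 0.56 (adjusted p = 0.00405). Hyou1 fell by 0.42 (adjusted p = 0.0211), a call lost without WT replicate 2 or TRAP1 KO replicate 3 (adjusted p from 0.0801 to 0.132), and Manf fell by 0.36 (adjusted p = 0.0328), a call lost when any library but TRAP1 KO replicate 3 was left out (adjusted p from 0.0649 to 0.162).

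Interferon-stimulated genes that passed the test were mostly higher. Of 44 tested genes 21 (47.7%) rose, 3 (6.82%) fell and 20 had no call, with a median of 0.42, and 16 were higher without TRAP1 KO replicate 2. With 27 libraries and batch as a term 4 rose. Ifitm3, which blocks the entry of viruses, was at 672, 651 and 620.4 CPM in WT and 1595, 1801 and 1567 in TRAP1 KO (log2 fold change of 1.35, SE 0.11, adjusted p = 9.43e-10). Its relative Ifitm6, outside the list, was at 3.46, 2.98 and 1.83 CPM and 10.2, 14.7 and 16.96 (log2 fold change of 2.34, SE 0.23, adjusted p = 3.41e-08). Ifi27l2a rose by 1.04 (adjusted p = 4.24e-08). The antiviral enzyme Rsad2 (viperin) was at 65.4, 67.7 and 54.9 CPM and 108, 137 and 122 (log2 fold change of 0.97, SE 0.09, adjusted p = 5.73e-09). The groups did not overlap for any of these 4, which held in this direction for 20% of all genes. Xaf1 went against the list, from 13.8, 15.03 and 15.7 CPM in WT to 5.25, 2.68 and 3.72 in TRAP1 KO (log2 fold change of -1.95, SE 0.27, adjusted p = 1.79e-05).

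The element of a pair of GAAA set 2 bases apart, the core to which interferon-activated factors bind, was searched on both strands of the windows described above. It was in 8 of the 15 windows at hand for the 21 genes that rose (53.3%), against 3.38% of the 9906. The list was drawn up by response to interferon, so its share may exceed that of all genes whichever members rose. List genes that did not rise were not searched as a set, and the same holds for the other motifs. The matches are thus not tied to the effect of TRAP1 loss. The windows of Ifit3 (chr19:34583279-34583528 on the plus strand), Bst2 (chr8:71537473-71537722 on the minus strand) and Rsad2 (chr12:26456453-26456702 on the minus strand) are shown as examples of such matches, in capitals, where a pair of TTTC is a match on the opposite strand.
Ifit3: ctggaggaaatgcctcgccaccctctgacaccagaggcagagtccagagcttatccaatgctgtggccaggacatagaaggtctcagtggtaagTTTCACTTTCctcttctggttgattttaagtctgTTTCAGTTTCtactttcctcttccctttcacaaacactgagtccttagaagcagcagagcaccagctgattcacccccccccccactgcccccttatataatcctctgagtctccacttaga
Bst2: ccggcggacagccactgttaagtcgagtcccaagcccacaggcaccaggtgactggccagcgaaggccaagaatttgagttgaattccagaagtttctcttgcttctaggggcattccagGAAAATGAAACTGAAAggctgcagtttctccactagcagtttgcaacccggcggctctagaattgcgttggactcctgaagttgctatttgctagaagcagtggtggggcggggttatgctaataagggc
Rsad2: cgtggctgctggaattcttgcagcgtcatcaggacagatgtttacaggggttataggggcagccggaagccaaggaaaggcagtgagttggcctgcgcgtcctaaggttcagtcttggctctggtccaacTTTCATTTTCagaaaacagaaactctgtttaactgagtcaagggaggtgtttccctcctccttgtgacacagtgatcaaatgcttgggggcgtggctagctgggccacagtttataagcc
Ifit3 holds a pair of separate matches and Bst2 overlapping ones. Ifit3, an inhibitor of viral translation, was at 15.5, 13.3 and 12.9 CPM in WT and 28.4, 26.2 and 23.7 in TRAP1 KO (log2 fold change of 0.91, SE 0.12, adjusted p = 3.96e-06), and Bst2 (tetherin) at 27.3, 26.7 and 30.04 and 43.98, 40.04 and 52.1 (log2 fold change of 0.70, SE 0.15, adjusted p = 0.00161). The remaining genes with a match were Ifitm2, Igtp, Irgm1, Stat2 and Trim30a.

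The Ifi200 and Schlafen families, which sense nucleic acids or restrict viral replication, had 4 of 21 tested genes higher and none lower, with Slfn8 at 12.02, 12.7 and 12.8 CPM in WT and 24.6, 28.8 and 25.1 in TRAP1 KO (log2 fold change of 1.07, SE 0.16, adjusted p = 1.86e-05), Ifi203 up by 0.74 and Slfn5 by 0.32. Reads of these families may be shared among close paralogs. The fit on the 6 libraries alone had 7 genes higher. Antigen presentation did not rise with them. Of 11 class II genes 3 fell (27.3%, against 7.87% of all genes) and none rose. Those that fell included the peptide-loading factors H2-DMa (-0.49 (adjusted p = 0.000761)) and H2-DMb1 (-0.34 (adjusted p = 0.00549)), although the median of the list was 0.10. Of 18 class I genes, the heavy chain H2-D1 rose by 0.41 (adjusted p = 0.00417), a call lost without WT replicate 3 (adjusted p = 0.0523), and the immunoproteasome subunit Psmb10 fell by 0.29 (adjusted p = 0.0426), a call lost when any library but TRAP1 KO replicate 2 was left out (adjusted p from 0.0566 to 0.125).

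Surface receptors moved in both directions. Of 20 scavenger and Fc receptors 9 rose and 7 fell. Only 3 rose without TRAP1 KO replicate 2, 5 without WT replicate 3 and 4 without WT replicate 4. Fcgr1 and Mertk rose, the latter a receptor for the uptake of apoptotic cells, at 66.3, 73.96 and 65.6 CPM in WT and 121, 153 and 137 in TRAP1 KO (log2 fold change of 0.999, SE 0.08, adjusted p = 1.48e-09). Axl, of the same kinase family, fell from 95.8, 95.7 and 106 CPM to 51.2, 47.1 and 46.6 (log2 fold change of -1.04, SE 0.09, adjusted p = 6.15e-09). Clec4n (dectin-2) was at 234, 230.3 and 219 CPM and 101.01, 108 and 92.4 (log2 fold change of -1.18, SE 0.09, adjusted p = 2.49e-10). Folr2, a folate receptor of tissue-resident macrophages that is not on this list, was at 19.4, 15.9 and 16.1 CPM and 63.2, 66.8 and 61.1 (log2 fold change of 1.89, SE 0.11, adjusted p = 4.10e-12). The Ms4a family and the Tmem176 pair had 4 of 11 genes higher and 2 lower, with Ms4a6b at 0.78 and Ms4a14 at 0.56 against Ms4a4a at -0.67 and Ms4a6d at -0.52. When a library was left out, 2 of these genes rose, or 3 without TRAP1 KO replicate 1.

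Of 13 complement genes 5 rose and 2 fell. C3, the central component, was at 199, 188 and 182 CPM in WT and 93.2, 92.9 and 81.5 in TRAP1 KO (log2 fold change of -1.09, SE 0.09, adjusted p = 1.05e-09), and the integrin chain Itgax (CD11c) of complement receptor 4 was at 1494, 1476 and 1506 CPM and 765, 816 and 751 (log2 fold change of -0.94, SE 0.08, adjusted p = 2.06e-09). The opposite held for the C5a receptor C5ar1, at 100.96, 103 and 109 CPM and 215, 207 and 201 (log2 fold change of 0.997, SE 0.09, adjusted p = 1.80e-08), and for C1qb, which rose by 0.77 (adjusted p = 3.52e-06). Lysosomal genes had 5 of 26 higher (19.2%, against 8.56% of all genes) and none lower, and 3 higher without WT replicate 3 or TRAP1 KO replicate 1. The collagen-degrading protease Ctsk was at 60.7, 64.1 and 70.6 CPM and 119.9, 119 and 110.5 (log2 fold change of 0.84, SE 0.12, adjusted p = 1.17e-05), while the cathepsins Ctsd, Ctsb and Ctsl rose by 0.65, 0.43 and 0.40, the last a call lost whichever of the 6 libraries was left out (adjusted p from 0.0816 to 0.175).

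Among 28 genes of the extracellular matrix and its proteases 11 fell and 4 rose (median -0.10). Mmp14, a membrane-bound collagenase, was at 21.5, 24.9 and 18.8 CPM in WT and 7.505, 7.36 and 6.62 in TRAP1 KO (log2 fold change of -1.60, SE 0.20, adjusted p = 1.45e-06). The neutrophil-type collagenase Mmp8 was at 188, 205 and 196 CPM and 81.1, 90.2 and 85.9 (log2 fold change of -1.20, SE 0.10, adjusted p = 3.83e-09). F13a1, a transglutaminase subunit of clotting, fell by 1.004 (adjusted p = 3.63e-05). Outside the list, Adamts1, a protease that cleaves proteoglycans, rose from 3.005, 3.11 and 2.11 CPM to 17.3, 21.02 and 18.3 (log2 fold change of 2.78, SE 0.28, adjusted p = 3.96e-08). The list of soluble angiogenic factors was named by the study. It came from a protein array of media of cells exposed to MPNST-CM and from RNA sequencing. It is therefore no independent evidence of a direction, and released proteins in MPNST-CM are not transcripts in control medium. Of 26 tested, 6 rose and 7 fell (median -0.03), with Vegfa and Adamts1 among the former and Mmp8, Ccl7 and Ptx3 among the latter. Ptx3, a pentraxin that binds growth factors, was at 12.02, 12.3 and 12.1 CPM and 3.902, 4.28 and 3.45 (log2 fold change of -1.64, SE 0.26, adjusted p = 6.09e-05).

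**Figure D4:**
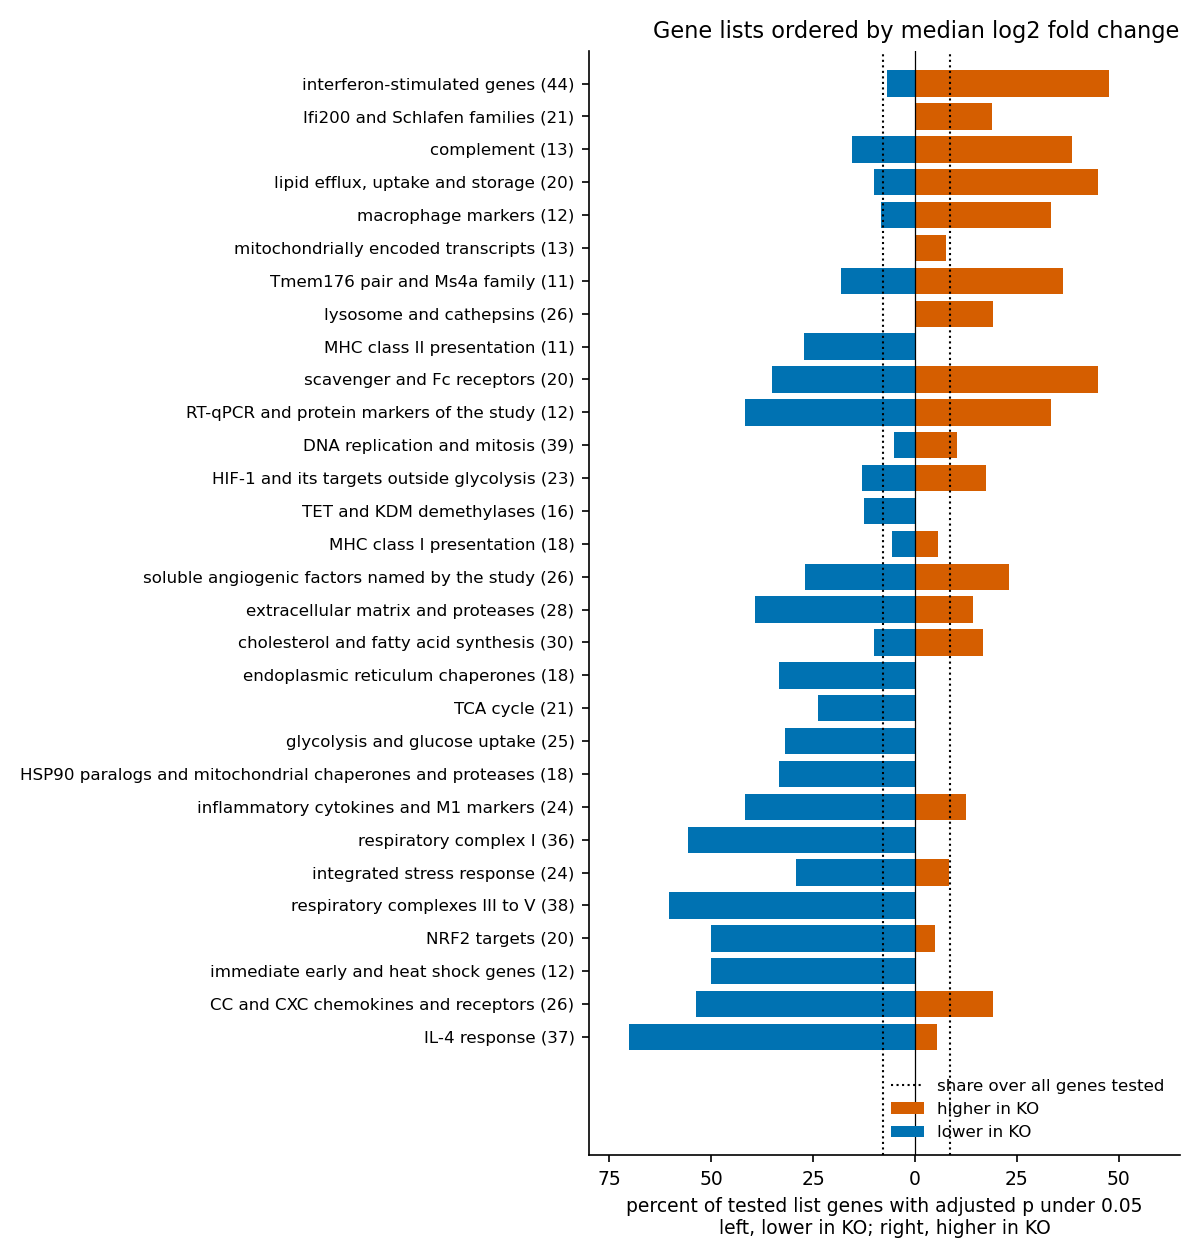
Percent of the tested genes of each list (number in brackets) that were higher (orange, to the right) or lower (blue, to the left) in TRAP1 KO at an adjusted p under 0.05, with lists ordered by their median log2 fold change and dotted lines at the shares over all genes tested, 8.56% and 7.87%. IL-4 response (70.3% lower) lies at the lower end and interferon-stimulated genes (47.7% higher) at the upper end.

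Several of these counts changed by over 1.5 times with all 27 libraries in the fit. There 14 genes of complexes III to V fell in place of 23, 5 glycolytic genes in place of 8, 6 chemokines and receptors in place of 14, 4 inflammatory genes in place of 10, 5 NRF2 targets in place of 10, 1 gene of the integrated stress response in place of 7, and 2 matrix genes in place of 11. In the same fit 5 genes of lipid efflux, uptake and storage rose in place of 9, 4 scavenger and Fc receptors in place of 9, and 1 lysosomal gene in place of 5.

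Other large changes were outside these groups. Il31ra, a cytokine receptor chain, was at 21.6, 16.2 and 17.4 CPM in WT and 1.05, 1.07 and 1.103 in TRAP1 KO (log2 fold change of -4.08, SE 0.38, adjusted p = 7.00e-08). The kinase Dclk1 was at 17.6, 23.8 and 22.2 CPM and 1.95, 0.937 and 1.65 (log2 fold change of -3.81, SE 0.31, adjusted p = 7.23e-09), and the tubulin Tuba8 at 23.1, 37.2 and 24.3 and 2.55, 2.41 and 1.52 (log2 fold change of -3.70, SE 0.25, adjusted p = 6.04e-11). Dio2, the deiodinase that activates thyroid hormone, rose from 13.97, 13.6 and 13.5 CPM to 66.8, 77.7 and 60.3 (log2 fold change of 2.32, SE 0.16, adjusted p = 6.52e-11). The imprinted cell cycle inhibitor Cdkn1c was at 7.51, 6.48 and 8.84 CPM and 30.9, 33.1 and 32.96 (log2 fold change of 2.09, SE 0.23, adjusted p = 2.14e-07). The organic anion transporter Slco4a1 was at 23.1, 29.02 and 27.8 CPM and 103, 93.6 and 90.6 (log2 fold change of 1.84, SE 0.12, adjusted p = 3.39e-11), Mamdc2 at 13.7, 18.7 and 20.4 and 78.05, 58.4 and 78.6 (log2 fold change 2.02), the orphan receptor Gprc5b at 2.55, 3.89 and 3.51 and 16.1, 11.4 and 13.8 (2.04 on that scale), and the tRNA gene TrnA at 5.11, 5.44 and 5.33 and 25.1, 23.4 and 28.1 (2.27 on that scale). TrnA is not among the 13 mitochondrially encoded transcripts given above, which hold no tRNA.

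Of 12 tested immediate early and heat shock genes 6 fell and none rose (median -0.61), and the summed level of the 13 genes of the list was 759.8 to 782 CPM in WT and 461 to 499 CPM in TRAP1 KO, where sums over a list, here and for the cell type markers, are relative to total counts without TMM scaling (two-sided exact permutation p = 0.1, the smallest possible). Ier3, an early gene that limits apoptosis, was at 106, 92.1 and 92.2 CPM and 20.7, 22.8 and 21.5 (log2 fold change of -2.16, SE 0.10, adjusted p = 1.38e-13), and Fos, Dusp1 and Egr1 fell, with log2 fold changes of -1.33, -1.27 and -1.24. Their part in the falls of chemokine and inflammatory genes was not tested.

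Markers of cell types were read to check the label. The 12 macrophage markers were all detected and summed to 9211 to 9537 CPM in WT and 10034 to 10627 CPM in TRAP1 KO, with 4 higher and 1 lower by the test, among them the LPS co-receptor Cd14 (1.20 (adjusted p = 1.16e-05)) and, near the threshold, the factor Cebpa (0.33 (adjusted p = 0.0457)), a call lost whichever of the 6 libraries was left out (adjusted p from 0.0755 to 0.182). Markers of dendritic cells summed to 38.4 to 44.6 CPM in WT and 24.6 to 29.0 CPM in TRAP1 KO, with Batf3 lower at -0.82 (adjusted p = 0.00712), a call lost without TRAP1 KO replicate 3 (adjusted p = 0.0535). Those of neutrophils and progenitors summed to 15.1 to 18.7 and 10.2 to 12.3 CPM, with S100a9 lower at -0.85 (adjusted p = 0.0251), a call lost when any library but TRAP1 KO replicate 1 was left out (adjusted p from 0.0502 to 0.095997). Both sums had an exact permutation p of 0.1. Markers of mast cells, basophils and eosinophils (54.1 to 56.6 and 55.3 to 63.5 CPM), of lymphocytes (2.43 to 3.64 and 2.87 to 4.44 CPM) and of stromal and erythroid cells (4.19 to 5.52 and 2.39 to 6.45 CPM) overlapped between the groups. In such bulk libraries fewer cells of a type and less RNA per cell cannot be told apart. Ribosomal protein transcripts took 3.73% to 3.79% of counts in WT and 3.15% to 3.54% in TRAP1 KO (exact p = 0.1).

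Of 39 tested genes of DNA replication and mitosis 4 were higher (10.3%) and 2 lower (5.13%), with a median of 0.03. These shares lie near those of all genes, 8.56% and 7.87%. Stmn1, a regulator of microtubules, and the thymidine kinase Tk1 rose by 0.60 (adjusted p = 0.000431) and 0.50 (adjusted p = 0.00405), and the cyclin Ccne1 fell by 0.54 (adjusted p = 0.00612), a call lost without WT replicate 4 (adjusted p = 0.0602), and the helicase subunit Mcm4 fell by 0.44 (adjusted p = 0.0282), a call lost without WT replicate 2, WT replicate 3, WT replicate 4 or TRAP1 KO replicate 2 (adjusted p from 0.0574 to 0.15002). Of these calls, 2 rises remained without TRAP1 KO replicate 2 or WT replicate 4, and no fall remained without WT replicate 4. TET and KDM demethylases, which depend on oxoglutarate, had 2 of 16 lower (12.5%, against 7.87% of all genes), Kdm6a and Kdm5c, and none higher. Both are among the genes given above that escape X-inactivation, and the call of Kdm6a depended on single libraries. Next to Trap1 on chromosome 16, 2 of 10 tested neighbours passed, against 16.4% of all genes. Adcy9 rose by 0.31 (adjusted p = 0.0423), a call lost whichever of the 6 libraries was left out (adjusted p from 0.0602 to 0.197), and Gm6142 by 1.06 (adjusted p = 0.0388), a call lost when any library but WT replicate 4 was left out (adjusted p from 0.0503 to 0.148). Of genes known to differ between C57BL/6 substrains, 1 of 4 tested passed, the insulin-degrading enzyme Ide (-0.41 (adjusted p = 0.00867)).

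The same genotype comparison in unpolarized Mφ in control medium (3 libraries per group, none of them shared) had 2261 genes past the threshold (16.6%), of which 1085 (7.97%) were lower and 1176 (8.64%) higher in TRAP1 KO. Both comparisons had 270 genes lower, which are 25.2% of those in M2 and 24.9% of those in Mφ, and 466 genes higher, 40% and 39.6%. A further 56 were lower in M2 and higher in Mφ, and 50 the reverse. The difference between the effects was tested directly and passed for 964 genes (7.08%), 526 (3.86%) with the higher fold change in M2 and 438 (3.22%) with the lower.

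By that test 18 of the 37 IL-4 genes were lower and 2 higher in M2. In Mφ, which had received no IL-4, 8 of the 37 rose and 3 fell by their own test. Some members, such as Arg1, were near the limit of detection there. Arg1 averaged 0.359 ± 0.183 CPM (SD, n = 3) in WT Mφ and 0.961 ± 0.982 in TRAP1 KO Mφ. The 5 largest differences among genes with at least 10 CPM in 1 of the 4 groups compared were those of Arg1 (-5.57), Mgl2, Socs1 (-4.66), Edn1 (-4.24) and Rnase2a (-3.40). Edn1, which encodes the vasoconstrictor endothelin-1, was at 49.6, 42.5 and 52.8 CPM in WT and 6.604, 3.88 and 7.17 in TRAP1 KO M2 cells (log2 fold change of -3.04, SE 0.25, adjusted p = 1.13e-09), and at 0.573 and 1.34 CPM in WT and TRAP1 KO Mφ. Mgl2 was at 0.519 ± 0.227 CPM in WT and 2.999 ± 1.64 in TRAP1 KO Mφ, a rise of 2.46 (adjusted p = 1.69e-05) where M2 cells had a fall, with a difference of -4.76 (SE 0.37, adjusted p = 3.28e-09). Clec10a, which was well detected in Mφ, went from 45.3 ± 5.99 CPM to 145 ± 17.2 there (1.68, adjusted p = 2.47e-10), and its effect differed by -2.78 (SE 0.18, adjusted p = 4.85e-11).

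Several genes outside the IL-4 list also went in opposite directions in the cell types, by their own tests. Acod1 rose in Mφ from 25.1 to 58.4 CPM (1.22, adjusted p = 1.15e-06), C3 from 56.4 to 179 (1.66, adjusted p = 4.61e-13), Ccl4 from 60.2 to 104 (0.79, adjusted p = 3.65e-06) and Mmp14 from 8.195 to 20.4 (1.31, adjusted p = 1.23e-05), whereas all 4 fell in M2. The differences were -2.57, -2.75, -2.38 and -2.91, with adjusted p of 1.39e-08, 7.64e-14, 3.04e-11 and 4.45e-08. Replication and mitosis genes differed the other way. In Mφ 37 of 39 fell (median -1.11), in M2 2 fell, and the difference passed for 34 of 39, each with the higher value in M2. Tk1 is an example, at 87.1 and 30.7 CPM in WT and TRAP1 KO Mφ (-1.505), with a difference of 2.005 (adjusted p = 3.28e-09). For complex I, where no gene fell in Mφ, the difference passed for 5 of 36 genes, and for complexes III to V for 5 of 38, all lower in M2. A miss of the threshold in Mφ does not by itself show that the effects differed.

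For other genes the test of the difference did not pass, which does not show that the effects were equal. Scd1 rose by 3.25 in Mφ, with a difference of -0.29 (SE 0.23, adjusted p = 0.526), and Abca1 by 1.48, with a difference of 0.22 (SE 0.17, adjusted p = 0.543). Of interferon-stimulated genes 31 of 44 rose in Mφ (median 0.46), and the difference passed for 12, of which 8 were lower and 4 higher in M2.

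In M2 cells exposed to MPNST-CM the genotypes differed in 4627 genes (34%), with 2337 (17.2%) up and 2290 (16.8%) down in TRAP1 KO. Genes lower in both media numbered 484 (45.1% of those in control medium and 21.1% of those in MPNST-CM), and genes higher in both 487 (41.8% and 20.8%). A further 136 were lower in control medium and higher in MPNST-CM, and 166 the reverse. The effect differed between media for 2751 genes (20.2%), 1274 (9.36%) with the higher value in MPNST-CM and 1477 (10.8%) with the lower, a test that includes the 6 libraries described here.

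Scd1, which rose in control medium, had a log2 fold change of -0.57 in MPNST-CM (adjusted p = 0.00178) and a difference between media of -3.53 (SE 0.20, adjusted p = 1.53e-12). In the list of cholesterol and fatty acid synthesis 29 of 30 fell in MPNST-CM, against 3 in control medium, and the difference passed for 27. Slco4a1 went from 209 to 41.6 CPM in MPNST-CM (-2.33, adjusted p = 1.83e-14) and rose in control medium. For Arg1 the fall was smaller in MPNST-CM, from 632 to 228 CPM (-1.47), with a difference of 2.77 (SE 0.31, adjusted p = 1.30e-06).

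The 5 largest differences between media, by the same minimum of 10 CPM, were those of Cox6a2, Slfn1, Ftl2-ps, Slfn4 and Aqp9. Cox6a2, Slfn1, Slfn4 and Aqp9 were all under 3 CPM in the 6 libraries in control medium and were at 20.4, 34.3, 22.8 and 69.1 CPM in TRAP1 KO cells in MPNST-CM. Ftl2-ps, a ferritin pseudogene, was at 2.85, 4.53 and 6.18 CPM in WT and 353, 6.43 and 4.83 in TRAP1 KO in control medium, so that its difference rests on 1 library. Interferon-stimulated genes rose more in MPNST-CM, where 42 of 44 were higher, and the difference passed for 39, of which 38 were higher there. Rsad2 reached a log2 fold change of 2.35, with a difference of 1.38 (SE 0.12, adjusted p = 2.05e-09). Complex I genes had a median of -0.02 in MPNST-CM, and the difference passed for 14 of 36, all of them lower in control medium.

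**Figure D5:**
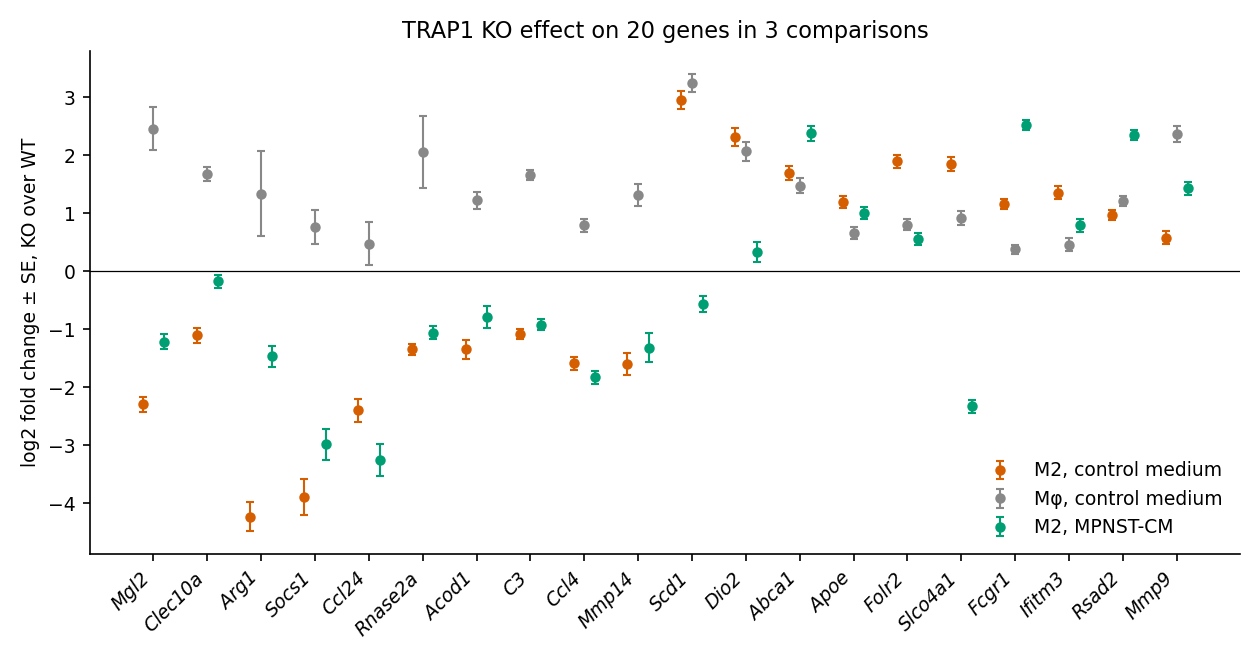
Log2 fold change of TRAP1 KO over WT with its SE for 20 genes in M2 cells in control medium (orange), Mφ in control medium (grey) and M2 cells in MPNST-CM (green), with 3 libraries per group. Arg1 and Socs1 lie lowest in M2 cells in control medium, Mgl2 and Clec10a change sign between the cell types, and Scd1 and Slco4a1 lie above 0 in control medium and below it in MPNST-CM.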

How the data were processed

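Raw counts per gene, without normalization, were deposited by the authors as a table of 50559 genes and 32 columns. The names of 5 columns fit no sample in the labels, so these columns stayed out of every step. Per the labels and the methods, reads of 75 bases were trimmed (Trimmomatic), mapped (HISAT2), filtered at a mapping quality of 20 and counted (featureCounts). The submitters' processing notes and the table name mm39 while the methods name another build, so no coordinate was taken from them. The library kit keeps strand, but versions and the strand setting of the counting are not given in the sources used here, so antisense and overlapping genes may share reads.

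The 24 libraries of batch 1 entered 1 fit of 8 groups in edgeR 4.0.16 (R 4.3.3), TMM-normalized after edgeR's group-wise low-count filter and tested by robust quasi-likelihood, and p-values were adjusted over all 13614 genes tested. The methods of the study mention DESeq2 and state no covariates. The batch 2 libraries were left out because the comparison is defined within batch 1. Differences between comparisons were contrasts of the same fit. Summed levels were compared by exact permutation tests. The scripts were tested on simulated data. Every pair of replicates differed beyond counting noise (chi-square for each degree of freedom from 2.98 to 13.1, genes with at least 20 counts). Alternatives were other size factors, DESeq2 1.42.0, no filter, other sets of libraries, batch as a term, a replicate block, a fold threshold and, added after the data were seen, leaving out each library for the summed levels.

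The genes named were Trap1, the markers of the study, X-inactivation and Y-linked genes, the 10 largest rises and falls with at least 10 CPM and no overlap, up to 4 called genes of each list with at least 5 CPM, the 5 largest differences in each contrast and the neighbours of Trap1. A few genes that this rule picks are not reported here. Others were chosen after their values were seen, such as Il4ra, Stat6, Il13ra1, Pparg, Clec7a, Pdcd1lg2, Ifit3, Bst2 and the remaining IL-4 genes. The members and lists were chosen with earlier results of these data known. Gene symbols were matched to RefSeq (GRCm38.p6) for 13424 of the 13614 genes, and upstream windows come from the same source.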

Additional observations from a re-analysis of the deposited data

Results flagged for a closer look

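The results below were singled out because the effect of TRAP1 loss differed between groups by a test of the difference itself, a contrast within edgeR's quasi-likelihood fit with Benjamini-Hochberg adjustment. Values are differences of log2 fold changes of TRAP1 KO over WT, with 3 libraries in each group. Between M2 cells and Mφ in control medium, 964 genes had such a difference. Given here are the markers of the study, the 10 largest rises and falls, the 5 largest differences and 6 further genes whose difference the report prints, and not every named gene that differed. The effect was lower in M2 for Nos2 (-5.67), Arg1 (-5.57), Mgl2 (-4.76), Socs1 (-4.66), Edn1 (-4.24), Rnase2a (-3.40), Tuba8 (-3.27), Cish (-3.21), Mmp14 (-2.91), Ccl24 (-2.87), Clec10a (-2.78), C3 (-2.75), Acod1 (-2.57), Ccl4 (-2.38), Cox6a2 (-1.98), Mmp9 (-1.79) and Mrc1 (-0.41). It was higher in M2 for Tk1 (2.005), Adamts1 (1.62), Mamdc2 (1.56), Ifitm6 (1.39), TrnA (1.33), Cd163 (1.25), Folr2 (1.09), Slco4a1 (0.92) and Fcgr1 (0.78). Their adjusted p lay between 7.64e-14 and 0.0385. In Mφ the group means of Arg1, Edn1, Rnase2a, Tuba8, Cish, Ccl24 and Cox6a2 lay between 0.0789 CPM (Rnase2a, WT) and 1.59 CPM (Cox6a2, TRAP1 KO). The sizes of these differences therefore rest on few counts there. That of Nos2 rests on few counts in M2 cells in control medium. Mgl2 was at 0.519 CPM in WT Mφ.

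Between MPNST-CM and control medium, the effect in M2 cells differed for 2751 genes. The value in MPNST-CM was the lower one for Ftl2-ps (-5.89), Slco4a1 (-4.17), Scd1 (-3.53), Mamdc2 (-3.17), Tk1 (-3.04), Cdkn1c (-2.09), Dio2 (-1.98), Adamts1 (-1.67), TrnA (-1.66), Folr2 (-1.34), Tnf (-0.90) and Retnla (-0.67). In MPNST-CM it was the higher one for Nos2 (8.19), Cox6a2 (6.65), Slfn1 (6.12), Slfn4 (5.88), Aqp9 (4.68), Dclk1 (3.15), Arg1 (2.77), Cish (2.20), Il1b (1.596), Rsad2 (1.38), Fcgr1 (1.36), Mgl2 (1.08), Cdh1 (0.93), Clec10a (0.92), Mmp9 (0.85), Hif1a (0.80), Mrc1 (0.74) and Vegfa (0.65). The adjusted p of these differences lay between 1.28e-15 and 0.0488. The difference of Ftl2-ps rests on TRAP1 KO replicate 1 in control medium (353 CPM, against 6.43 and 4.83 in the other two). Nos2, Slfn1 and Slfn4 had few counts in control medium, and their differences rest on those counts. Groups of 3 were too small to test for a single outlying library.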

How the results depend on the processing

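The number of genes that differed between TRAP1 KO and WT M2 cells in control medium was 2238 and stayed within 1.5 times under median-of-ratios size factors (2278), DESeq2 (2237, of which 2076 were shared), no filter on low counts (2201), the 6 libraries alone (2822) and each library left out (1587 to 1850). It was 1137 with 27 libraries, 1146 with batch as a term beside them and 526 when a gene also had to move by 1 or more on the log2 scale. The difference between M2 and Mφ passed for 964 genes, 170, 122 and 426 under these 3 settings, and 743 to 914 with a library left out, where without WT replicate 4 of M2 in control medium 287 genes were lower in M2 in place of 438. The difference between media passed for 2751 genes, 180, 269 and 1214 under the same settings, and 2232 to 2566 with a library left out. The cause was not tested.

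The groups share only replicate numbers 2 and 3. With the replicate block 1989, 998 and 2711 genes passed in the 3 comparisons, and deviations of same-numbered libraries from their group means correlated with r of 0.037 and -0.055 across genes, so the numbers were not taken to pair the libraries.

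Of 146 named genes past the threshold, 115 kept their call and direction in every alternative within batch 1 other than the fold threshold. With 27 libraries 77 kept it, 57 lost it, such as Mrc1, Fn1, Scd2, Itgax and Mmp8, and 12 turned sign, and with batch as a term 80 kept it, 58 lost it and 8 turned. The call was lost for 3 named genes with median-of-ratios size factors, 2 with DESeq2, 7 with no filter and 4 with the 6 libraries alone. With the block 13 lost it (Ftl2-ps, Aqp9, Pbdc1, Clpp, Sdhaf4, Idh3a, Psmb10, Ccne1, Mcm4, Ftl1, Asns, Manf and Gm6142, adjusted p from 0.0546 to 0.141). With 27 libraries the sign turned for Retnla (-0.25), Chil3 (-0.43), Tnf (-0.035), Hif1a (0.64), Il1b (1.73), Cox6a2 (2.52), Aqp9 (2.92), Ptgs2 (0.072), Cxcl2 (2.56), Xaf1 (1.01), Asns (1.604), Mthfd2 (0.88), Clec4n (0.68), Ms4a6d (0.048), Ier3 (0.19), Dusp1 (0.58) and Il4ra (0.80), none of them past the threshold there. With batch as a term beside the 27 libraries, it turned for Retnla (-0.26), Chil3 (-0.43), Tnf (-0.034), Hif1a (0.33), Il1b (0.21), Cox6a2 (0.82), Aqp9 (1.13), Cxcl2 (0.33), Asns (0.298), Mthfd2 (0.24), Ms4a6d (0.046), Cebpa (-0.017) and Il4ra (0.56). Within batch 1 it turned only for genes that had not passed. Chil3 was at -0.0091 with median-of-ratios size factors, -0.0086 with DESeq2, -0.00090 with the 6 libraries alone, and from -0.069 to 0.071 with a library left out. With a library left out Slfn1 lay between -0.21 and 1.14, Slfn4 between -3.67 and 1.12, Ftx between -0.15 and 0.36, Jpx between -0.68 and 0.084, Il4ra between -0.098 and 0.047, and Il13ra1 between -0.35 and 0.022. With the block Slfn1 was at -0.055, Jpx at 0.062 and Il13ra1 at 0.040. No summed level of a marker list moved by more than its spread when a library was left out.

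At 7392454 to 8510959 counts per library, genes near 3 counts, such as Nos2 and Slfn4, could not be measured well, and 3 libraries per group limit the precision of all fold changes.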

Other observations

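The batch 2 library of M2 TRAP1 KO cells in control medium was left out of the main comparisons and entered the fits on all 27 libraries. It had 2 counts of Trap1 and 4220 counts of Xist (422 CPM), while the 3 TRAP1 KO libraries of batch 1 had 0 to 4 counts of Xist. In it Retnla was at 25.1 CPM, Chil3 at 1.90 CPM, Mgl2 at 3.00 CPM, Arg1 at 2.40 CPM, Socs1 at 9.40 CPM, Cish at 16.5 CPM and Mrc1 at 694 CPM. These CPM are relative to the library's total counts, without TMM scaling.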
